A study of Mus musculus with 6 samples.

Results

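Amino acid transporter genes were taken as all genes whose only platform symbol began with Slc1a, Slc3a, Slc7a, Slc36a, Slc38a or Slc43a. The rule found 42 of the 18193 genes measured, and for each the brightest of its probe sets, by mean log2 intensity over the 6 arrays, gave the value. The cells were bone marrow macrophages of C57BL/6 mice carrying a knockin (KI) mutation, or of wild-type (WT) C57BL/6 mice, with 3 arrays for each genotype. The series title names the IVVY motif of RANK, the receptor for RANKL on osteoclast precursors, and the labels do not describe which residues the KI allele alters. Both genotypes were cultured in dishes and received M-CSF at 44 ng/ml, which keeps macrophage precursors alive, together with RANKL at 100 ng/ml, which drives them towards osteoclasts, for 24 hours. No unstimulated cells are analysed here, so all values describe stimulated cells. The labels do not say whether replicates came from separate mice or cultures, so that p-values measure the spread between these samples, which may be technical.

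Amino acids cross membranes through carriers of several families. The Slc1 family holds sodium-dependent glutamate transporters and the neutral exchangers Slc1a4 and Slc1a5. The Slc7 family holds cationic amino acid transporters, which work alone, and light chains. Most light chains reach the plasma membrane only when bound to an Slc3 heavy chain, Slc3a2 (CD98) or Slc3a1. Slc36 carriers move amino acids with protons, Slc38 carriers move neutral amino acids such as glutamine, most of them with sodium, and Slc43 holds facilitated carriers. Members of Slc36 and Slc38 also sit on lysosomes, where amino acids freed by protein breakdown are signalled to the growth kinase complex mTORC1. Differentiating osteoclast precursors are known to depend on glutamine and arginine from their medium.

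The arrays were alike in scale, with median intensities between 83.0 and 84.8, and log2 values correlated at 0.995 or more within KI and at 0.993 or more within WT, against 0.97 to 0.99 between genotypes. The macrophage label was checked against markers. All 11 macrophage markers lay above the median level of all probe sets, and their summed intensity was 152363 to 159627 in KI against 96045 to 118687 in WT. Of these markers 8 were higher in KI and 0 lower, but leaving out KI 1, KI 2 or KI 3 left 0 calls and leaving out WT 2 left 4, against 9 without WT 1 and 8 without WT 3. Their median log2 difference was 0.66 over all arrays and 0.62 to 0.82 with 1 array left out. Of all genes 11.9% were higher and 14.9% lower over all arrays, and 4.88% to 11.0% were higher with 1 array left out. The 10 osteoclast markers summed to 32701 to 36537 in KI against 70544 to 81134 in WT, 7 were lower in KI, and 1 of the 10, Calcr, lay near the floor of 16 in both genotypes. Markers of neutrophils and progenitors summed to 22374 to 43933 in KI against 16059 to 20082 in WT, with 1 of 11 higher (4 without KI 2) and 1 lower. None of the B cell (5), T and NK cell (6), erythroid (4) or stromal (7) markers passed the threshold. The stromal markers were uneven within each genotype, summing to 10259.9, 2682 and 8788 in KI and 8744, 5493 and 2667 in WT. Fewer cells of a type and less RNA per cell cannot be told apart in such bulk samples, and the part of these marker differences in the transporter values was not tested.

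Of the 42 genes, 7 were higher in KI than in WT (16.7%) and 10 were lower (23.8%) at an adjusted p of 0.05 (limma), against 11.9% higher and 14.9% lower among all genes. At least 2-fold differences past the threshold were found for 8 members (19.0%), 3 higher and 5 lower, against 5.27% of all genes in either direction. The intensities of the 2 genotypes did not overlap for 21 members, against 45.2% of all genes, so this count was close to that of the array as a whole. The median log2 difference of the members was 0.03 and that of all genes -0.00129, and the median absolute differences were 0.14 for the members and 0.16 for all genes. Of the 26 members above the median level, 15 passed (57.7%), against 40.9% of all genes above that level. Of the 16 dimmer members 2 passed, Slc7a11 and Slc7a15. Leaving out 1 array lowered the counts to 3 higher and 4 lower without KI 1, 4 and 5 without KI 2, 3 and 4 without KI 3, 4 and 8 without WT 1, 4 and 6 without WT 2, and 5 and 5 without WT 3. The shares of all genes fell as well, to 6.85% higher and 8.33% lower without KI 1 and 7.66% and 9.76% without KI 2. They were 4.88% and 6.13% without KI 3 and 11.0% and 13.1% without WT 1. Without WT 2 they were 7.20% and 10.8%, and without WT 3 9.61% and 9.83%.

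**Figure D1:**
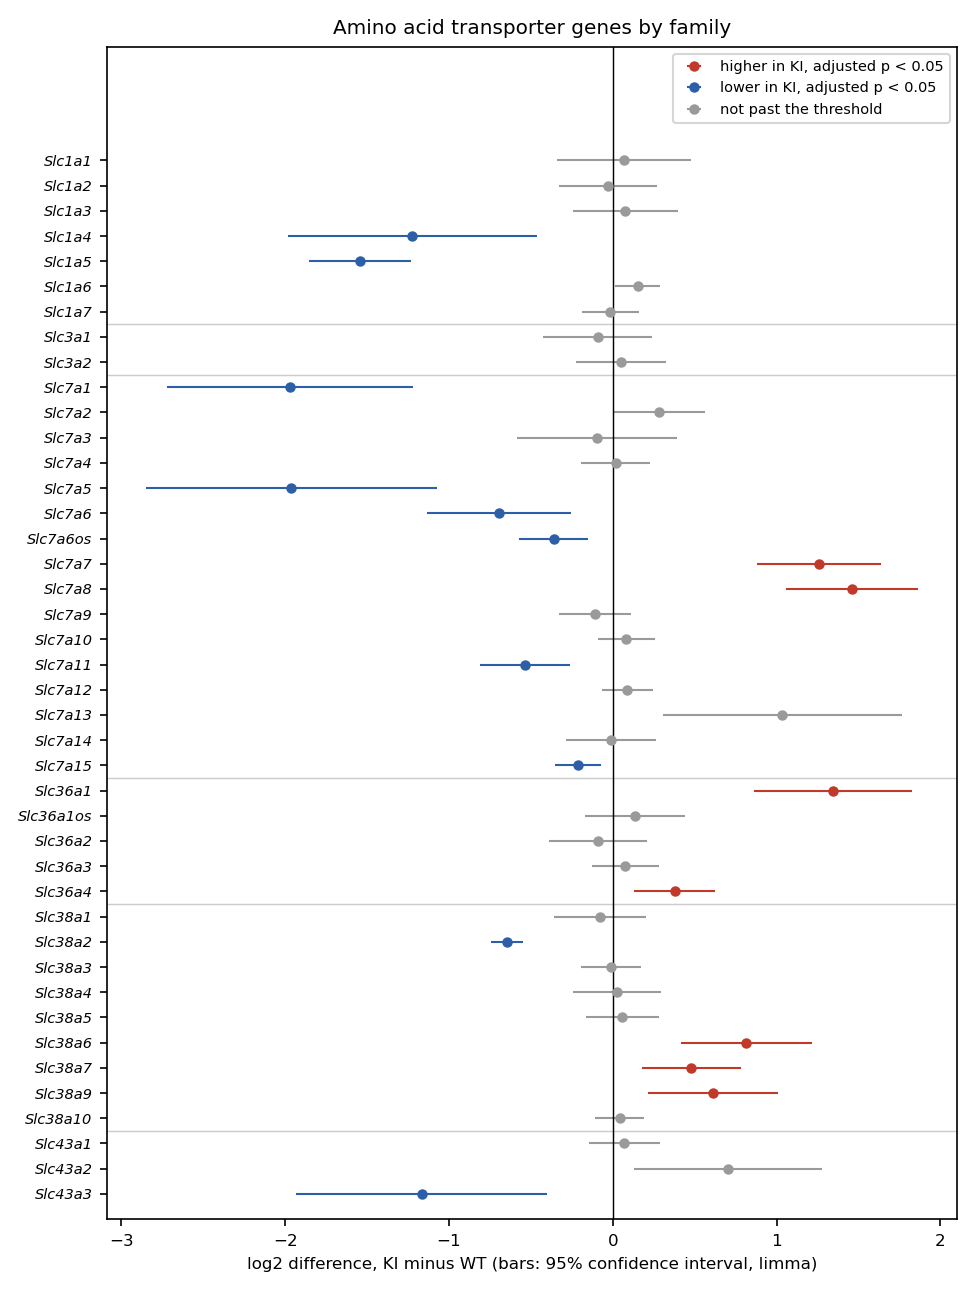
Log2 difference in intensity, KI minus WT, for each of the 42 genes, ordered by family from Slc1 at the top to Slc43 at the bottom (points, limma estimate from 3 arrays per genotype; bars, 95% confidence interval). The 7 higher genes reach 1.46 (Slc7a8) and the 10 lower genes reach -1.97 (Slc7a1), while the heavy chain gene Slc3a2 lies at 0.05. Slc36a4 and Slc38a7, higher here, fall to -0.15 and -0.05 when arrays are scaled to the older spike-in controls.

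Within Slc1, both neutral amino acid exchangers fell in KI cells and none of the 5 glutamate transporters passed. The family's share of lower genes was 28.6%, against 14.9% of all genes. Slc1a5, which exchanges glutamine and other neutral amino acids, had intensities of 895, 1122 and 1072 in KI and 3426, 2765 and 2814 in WT. All KI arrays lay far below all WT arrays. The difference was -1.54 ± 0.12 on the log2 scale (SE, n = 3 arrays per genotype; adjusted p = 0.0023, limma), or 2.91-fold lower in KI, and it held without any 1 array. Its other probe set was also lower, by a log2 difference of -1.36.

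Slc1a4, which exchanges alanine, serine, cysteine and threonine, had 78.3, 78.2 and 81.2 in KI and 301, 141 and 149 in WT. The KI arrays were nearly equal and low, and WT 1 stood far above the other WT arrays. The difference was -1.22 ± 0.30 (adjusted p = 0.035). The call ended without KI 1 (adjusted p = 0.10), KI 2 (0.093), KI 3 (0.10) or WT 3 (0.056), with differences of -1.38 to -1.21, and held without WT 1, with a difference of -0.87. The other probe sets of Slc1a4 had differences of -0.90 and -0.48 that did not pass. The glutamate transporters Slc1a1, Slc1a2, Slc1a3, Slc1a6 and Slc1a7 had differences between -0.03 and 0.15, and 4 of these 5 lay below the median level.

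The heavy chain gene Slc3a2 did not pass. Of the 10 light chain genes 6 passed, 4 lower (40%, against 14.9% of all genes) and 2 higher (20%, against 11.9%). Slc3a2 had 4738, 5278 and 5093 in KI and 5686, 4597 and 4386 in WT. The genotypes overlapped, and the difference was 0.05 with a 95% interval from -0.22 to 0.32 (adjusted p = 0.79). When replicate 1 of both genotypes was left out it became 0.21 (adjusted p = 0.042), higher in KI, and with arrays scaled to the older spike-in controls it was -0.48 (adjusted p = 0.095), which is close to the shift of all genes under that scaling. The other heavy chain, Slc3a1, known from kidney and gut, lay below the median level at -0.09.

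The largest loss among light chains was that of Slc7a5 (LAT1), which exchanges leucine and other large neutral amino acids. Its intensities were 426, 790 and 684 in KI and 3715, 1999 and 1832 in WT. KI 1 was the lowest KI array and WT 1 the highest WT array, and the genotypes were well separated. The difference was -1.96 ± 0.36 (adjusted p = 0.015), or 3.89-fold lower in KI. The call ended without KI 3 (-2.04, adjusted p = 0.054), and the difference was -1.38 without replicate 1 of both genotypes.

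Slc7a8 (LAT2), a light chain that carries small as well as large neutral amino acids, moved the other way. It had 1062, 1634 and 1432 in KI and 487, 488 and 501 in WT. Here the WT arrays were nearly equal, and every KI array lay above them. The difference was 1.46 ± 0.16 (adjusted p = 0.0045), or 2.75-fold higher in KI, and it held without any 1 array.

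The light chains that exchange cationic for neutral amino acids also parted. Slc7a7 (y+LAT1), the gene of human lysinuric protein intolerance, a disease in which macrophages are affected, had 1917, 1600 and 1666 in KI and 582, 805 and 796 in WT. All KI arrays lay above all WT arrays, and WT 1 was the lowest. Slc7a7 rose by 1.26 ± 0.15 (adjusted p = 0.0054), or 2.39-fold, it held without any 1 array, and its other probe set was higher as well (1.03). Its close relative Slc7a6 (y+LAT2) had 411, 472 and 474 in KI and 949.5, 628 and 655 in WT, so that every KI array lay below every WT array. Its difference was -0.70 ± 0.18 (adjusted p = 0.038), and its other probe set was lower (-0.95). The call for Slc7a6 ended without KI 1 (adjusted p = 0.11), KI 2 (0.086), KI 3 (0.096), WT 2 (0.052) or WT 3 (0.063), with differences of -0.80 to -0.63. Slc7a6os, named for lying opposite Slc7a6 and no transporter, was also lower (-0.36 ± 0.08, adjusted p = 0.030), but no longer passed without KI 1, KI 2, KI 3 or WT 3 (adjusted p = 0.068 to 0.10).

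Slc7a11 (xCT), which takes up cystine for glutathione in exchange for glutamate, was dim, with 45.1, 37.6 and 47.1 in KI and 61.7, 67.9 and 58.0 in WT. The genotypes did not overlap, but all arrays lay below the median level of the array, 84.7. The difference was -0.53 ± 0.11 (adjusted p = 0.021), and the call ended without KI 1 (adjusted p = 0.055) or WT 2 (0.061). It also ended without replicate 1 of both genotypes (-0.58, adjusted p = 0.085). The other probe set of Slc7a11 was at -0.86 and did not pass (adjusted p = 0.19 over probe sets, limma). There WT 1 stood at 75.9, against 28.1 on WT 2 and 35.3 on WT 3. Slc7a15, described in mouse as a carrier of aromatic amino acids, was lower and dim too (-0.21 ± 0.06, adjusted p = 0.043), and its call ended when any 1 of the 6 arrays was left out (adjusted p = 0.070 to 0.12). Slc7a13, a carrier of acidic amino acids and cystine known from kidney, had 208, 129.5 and 136 in KI and 52.5, 92.6 and 87.9 in WT. Its genotypes did not overlap, but the difference of 1.03 ± 0.29 did not pass (adjusted p = 0.052). It passed under 8 of the 20 alternative settings, among them scaling to the spike-in controls (adjusted p = 0.018). The other probe set of Slc7a13, near the floor, was at -0.18 and did not pass, and the mean of its probe sets was at 0.43. The light chains Slc7a9, Slc7a10 and Slc7a12 had differences between -0.11 and 0.09, none of them past the threshold.

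**Figure D2:**
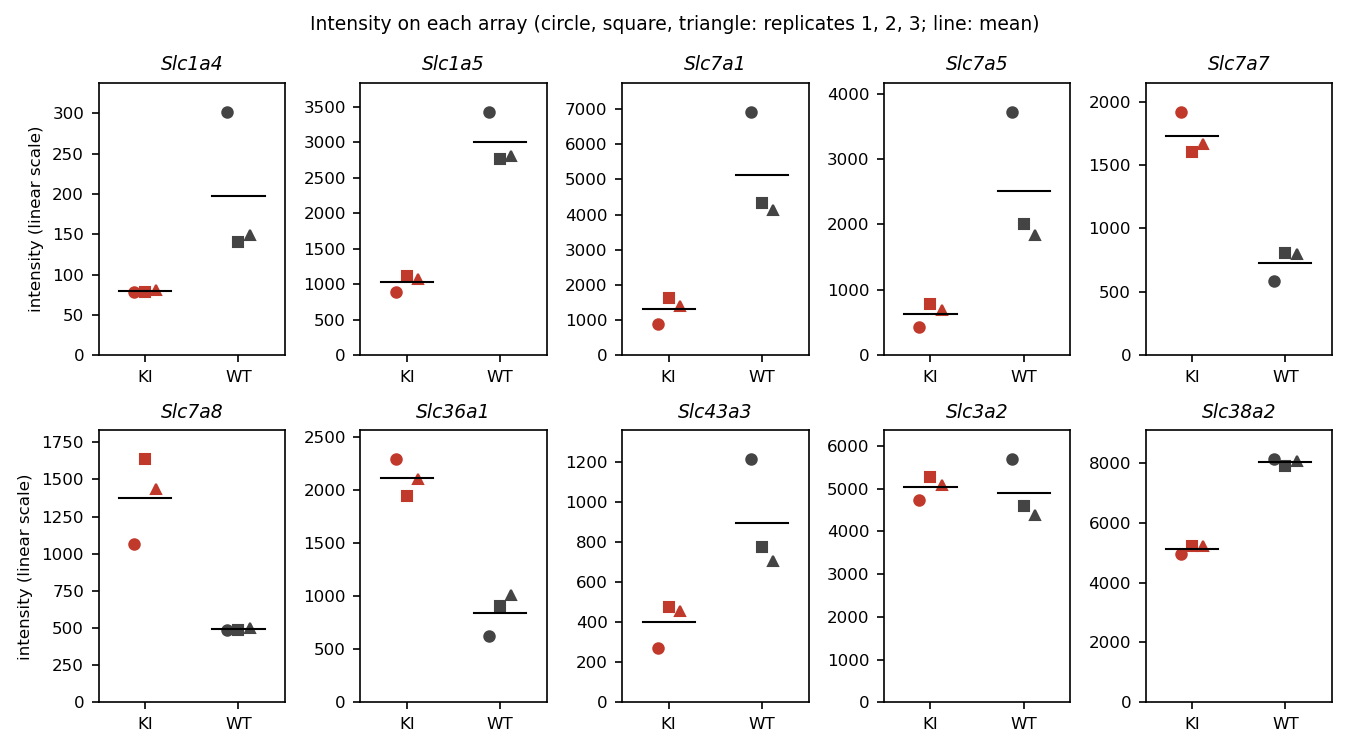
Intensity on each array (linear scale from 0, own axis for each gene; points are arrays 1 to 3, KI left and WT right; lines are group means) for the 8 members at least 2-fold apart and for Slc3a2 and Slc38a2. The KI and WT points do not overlap except for Slc3a2, and WT 1 is the WT array farthest from KI in each of the 8.

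Because 6 of the light chains, Slc7a5, Slc7a6, Slc7a7, Slc7a8, Slc7a10 and Slc7a11, are known partners of Slc3a2, each was also set against Slc3a2 on the same array, which removes any scaling of whole arrays. The log2 ratio of Slc7a5 to Slc3a2 was -3.04 ± 0.39 in KI and -1.03 ± 0.36 in WT (SD, n = 3 each), a difference of -2.01. That of Slc7a7 was -1.55 ± 0.22 in KI and -2.76 ± 0.46 in WT, a difference of 1.21. The differences were 1.41 for Slc7a8, -0.75 for Slc7a6, -0.59 for Slc7a11 and 0.03 for the dim Slc7a10, whose genotypes overlapped. Since Slc3a2 differed little, these ratios repeat the differences of the light chains themselves, and no test was made of them. The ratio compares changes between genotypes only, since levels of different probe sets cannot be compared with each other.

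**Figure D3:**
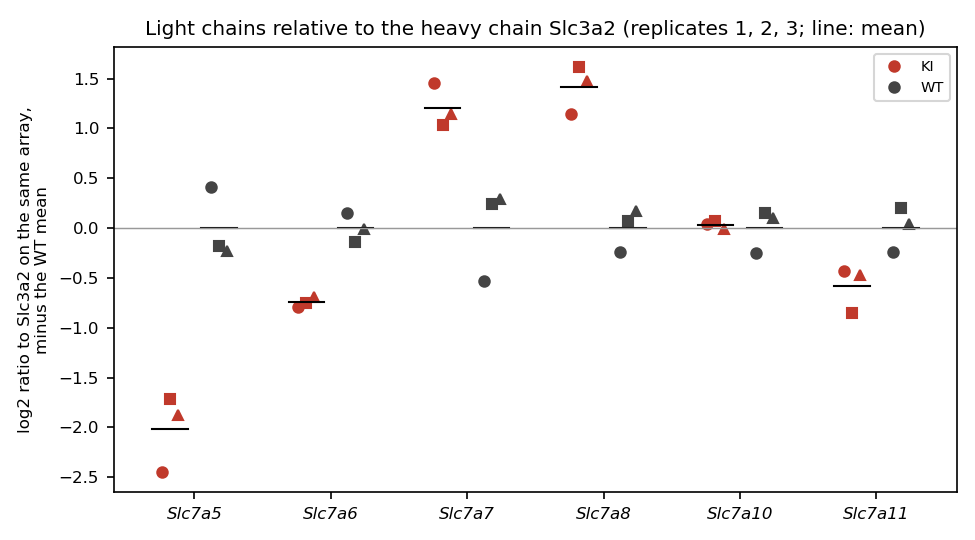
Log2 ratio of each of 6 light chain genes to the heavy chain gene Slc3a2 on the same array, minus the mean of that ratio over the WT arrays (points are arrays, KI left of WT for each gene). The ratios of Slc7a7 and Slc7a8 lie above those of WT on every KI array, those of Slc7a5, Slc7a6 and Slc7a11 below, and those of Slc7a10 overlap.

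Among the 5 genes of the cationic transporter branch of Slc7, 1 fell (20%, against 14.9% of all genes) and none rose. Slc7a1 (CAT1), the main carrier of arginine and lysine in most cells and, in mice, the receptor of ecotropic leukaemia viruses, had 893, 1635 and 1412 in KI and 6916, 4332 and 4140 in WT. Every KI array lay far below every WT array, with KI 1 the lowest and WT 1 the highest. The difference of -1.97 ± 0.30 (adjusted p = 0.0095), 3.92-fold lower in KI, was the largest among the members, and the call held without any 1 array. Of its other probe sets 1 was lower (-1.89), and 1, which was dim, was at 0.12 and did not pass. Slc7a2, the cationic carrier known for arginine uptake in activated macrophages, had 94.5, 96.5 and 99.5 in KI and 90.9, 68.8 and 80.5 in WT. These did not overlap, but the difference of 0.28 did not pass (adjusted p = 0.13). Slc7a3, Slc7a4 and Slc7a14 had differences between -0.10 and 0.02.

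In Slc36, 2 of the 5 members rose (40%, against 11.9% of all genes) and none fell. Slc36a1 (PAT1), a proton-coupled carrier of small amino acids that is found on lysosomes as well as the plasma membrane, had 2290.3, 1944 and 2106 in KI and 622, 911 and 1008 in WT. Every KI array lay far above every WT array, and WT 1 was the lowest. The difference was 1.35 ± 0.19 (adjusted p = 0.0081), or 2.54-fold higher in KI, and it held without any 1 array. Slc36a4, a carrier of proline and tryptophan, had 3080.0, 2605 and 2511 in KI and 1945, 2105 and 2245 in WT. The groups did not overlap and the difference was 0.38 ± 0.10 (adjusted p = 0.041), but it was -0.15 with scaling to the older spike-in controls, and its call ended when any 1 array was left out (0.29 to 0.44, adjusted p = 0.061 to 0.10). Slc36a2, Slc36a3 and the opposite-strand gene Slc36a1os had differences between -0.09 and 0.14 that did not pass.

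In Slc38, 3 of 9 members rose (33.3%, against 11.9% of all genes), and Slc38a2 fell (11.1%, against 14.9%). None of the 3 higher calls held without KI 1 or without KI 3, where 6.85% and 4.88% of all genes were higher. Slc38a2 (SNAT2), a sodium-coupled carrier of small neutral amino acids known to be induced when amino acids are scarce, had 4942, 5214.5 and 5216 in KI and 8110.4, 7889 and 8050.5 in WT. The arrays within each genotype were close and the genotypes far apart. The difference was -0.65 ± 0.04 (adjusted p = 0.0013), or 1.56-fold lower in KI. Slc38a2 was the only member whose call held in all 20 alternative settings, with log2 differences from -1.18 to -0.48. Of its other probe sets 1 was lower (-0.62), and 1 was at -0.17 and did not pass. Its relative Slc38a1 (SNAT1), which also carries glutamine, overlapped between genotypes at 2026, 2145.5 and 2078 in KI and 2605, 2046 and 1996 in WT, with a difference of -0.08 (95% interval -0.36 to 0.20). The other probe set of Slc38a1 did not overlap, at 551, 543 and 517 in KI and 891, 585 and 611 in WT. Its difference of -0.35 did not pass (adjusted p = 0.24 over probe sets, limma).

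Slc38a6 had 5172, 4059 and 4529 in KI and 2107, 2757 and 3003 in WT, without overlap. It rose by 0.82 ± 0.16 (adjusted p = 0.018), and its other probe set was higher (0.54). The call ended without KI 1 (0.73, adjusted p = 0.060) or KI 3 (0.82, adjusted p = 0.068), and under scaling to the older spike-in controls the difference was 0.29 (adjusted p = 0.32). Slc38a9, a lysosomal protein that in human cells senses arginine for mTORC1, had 682, 526 and 586 in KI and 327, 394.5 and 459 in WT. Its difference was 0.61 ± 0.16 (adjusted p = 0.041). All 7 of its probe sets were positive, from 0.24 to 0.62, although none passed in the fit over probe sets. The call for Slc38a9 ended without KI 1 (adjusted p = 0.11), KI 2 (0.060), KI 3 (0.11), WT 1 (0.073) or WT 2 (0.10), with differences of 0.48 to 0.70, and the difference was 0.08 with the older spike-in scaling.

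Slc38a7, a carrier that in human cells exports glutamine and asparagine from lysosomes, had 628, 598 and 725 in KI and 403, 501 and 496 in WT. It was higher by 0.48 ± 0.12 (adjusted p = 0.037) but at -0.05 with the older spike-in scaling, and the call ended when any 1 array was left out (0.38 to 0.54, adjusted p = 0.057 to 0.11). Slc38a3, Slc38a4, Slc38a5 and Slc38a10 had differences between -0.01 and 0.06. Slc38a10 was bright, at 3555, 3743 and 3762 in KI and 3845, 3467 and 3433 in WT, and its 95% interval ran from -0.11 to 0.19.

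In Slc43, 1 of 3 members passed, lower in KI (33.3%, against 14.9% of all genes). Slc43a3, which in human cells carries purine nucleobases and not amino acids, had 269, 476 and 458 in KI and 1213, 775 and 705 in WT. The difference was -1.17 ± 0.31 (adjusted p = 0.042), or 2.24-fold lower in KI. Its genotypes did not overlap, but the call ended without any 1 array, with adjusted p from 0.062 without WT 3 to 0.087 without KI 3 and differences of -1.32 to -0.90, and the difference was -0.66 (adjusted p = 0.012) without replicate 1 of both genotypes. Slc43a2 (LAT4), a carrier of branched-chain amino acids and phenylalanine, had 9122, 7239 and 7710 in KI and 3483, 5510 and 6124 in WT. These did not overlap, but the difference of 0.70 ± 0.23 did not pass (adjusted p = 0.076). It passed under 6 of the 20 alternative settings, among them the filter on low values (adjusted p = 0.033). Slc43a1 (LAT3) had a difference of 0.07.

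The members that passed did not differ evenly over the arrays. WT 1 was the WT array farthest from KI for 7 of the 7 higher and 9 of the 10 lower members. For Slc7a8 this rested on 486.6 on WT 1 against 487.6 on WT 2. KI 1 was the KI array farthest from WT for 5 of the 7 higher and 6 of the 10 lower members. This was not particular to the members. Over all genes WT 1 correlated least with the KI arrays, at 0.970 to 0.979, against 0.984 to 0.990 for WT 2 and WT 3. Of the KI arrays, KI 1 correlated least with each WT array. Relative to each gene's mean over the 6 arrays, the higher members had median log2 values of 0.50, 0.24 and 0.40 in KI and -0.71, -0.32 and -0.20 in WT. For the lower members these were -0.56, -0.38 and -0.32 in KI and 0.85, 0.34 and 0.29 in WT. Both sets were displaced farthest on WT 1, and opposite signs in KI and WT follow from how the sets were chosen.

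**Figure D4:**
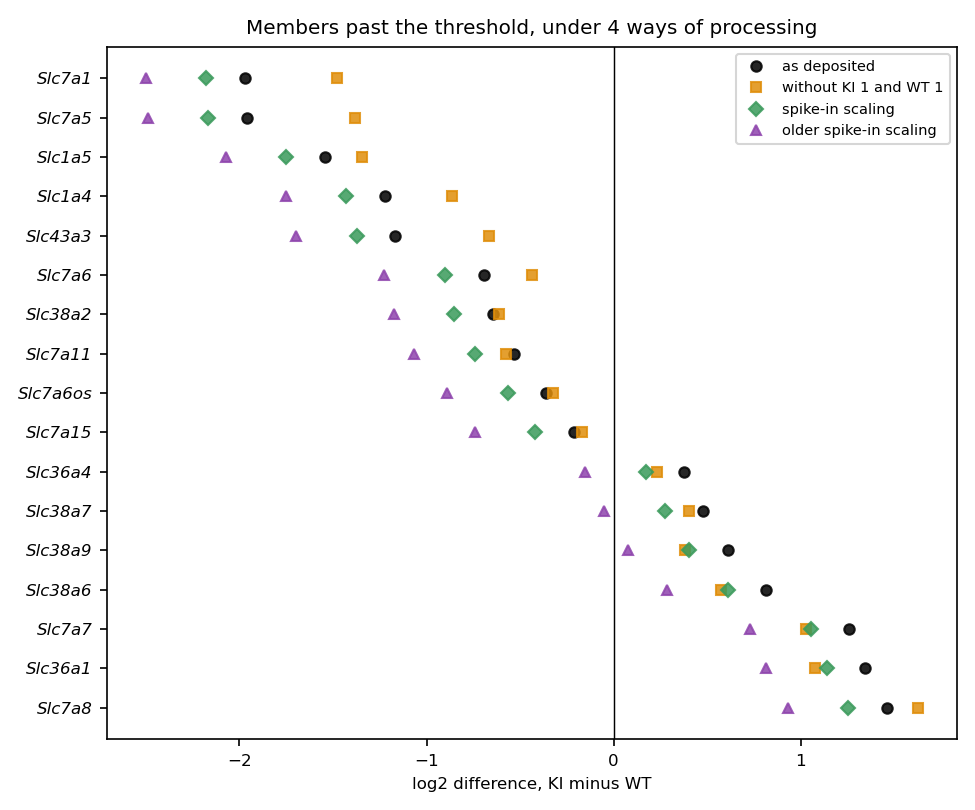
Log2 difference, KI minus WT, of the 17 members past the threshold, with intensities as deposited, without replicate 1 of both genotypes, and with arrays scaled to either set of spike-in controls. Slc36a4 and Slc38a7 cross 0 under the older spike-in scaling, at -0.15 and -0.05, and no other point changes side.

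The platform held 89 probe sets for the 42 genes, 47 beyond those used. In a fit over all 45037 probe sets, in which 18.7% passed in either direction, 8 of these 47 passed, 2 higher and 6 lower. The called members had 18 further probe sets, of which 17 had the sign of the one used, and 7 passed in the same direction and 0 in the other. The eighth was a dim probe set of Slc1a2, lower at -0.28, whose brighter probe set did not pass. For 7 of the 17 called members no further probe set was available. Of the probe sets used for the 17 called members, 10 passed in this wider fit, and those of Slc1a4, Slc7a6, Slc7a15, Slc36a4, Slc38a7, Slc38a9 and Slc43a3 did not, with adjusted p-values between 0.051 and 0.062 (limma).

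Genes that respond to amino acid shortage were mostly lower in KI. In this response the kinase GCN2 senses uncharged tRNA and the factor ATF4 is translated and raises genes of amino acid uptake and synthesis. Of 23 measured genes of this list, 14 were lower (60.9%, against 14.9% of all genes) and 3 higher, and the median log2 difference was -1.01, against -0.00129 for all genes. Named by adjusted p, Eif4ebp1, a translation repressor, averaged 3942 in KI and 8074 in WT (-1.03 ± 0.06, adjusted p = 0.0013). Cebpb, a factor of the same dimer family as ATF4, averaged 8222 in KI and 3922 in WT (1.07 ± 0.08, adjusted p = 0.0020), and Shmt2, a mitochondrial enzyme of serine use, 1305 in KI and 4337 in WT (-1.74 ± 0.23, adjusted p = 0.0067). Vldlr, a lipoprotein receptor, was lower but dim, at 34.6 in KI and 74.3 in WT. Asparagine synthetase, Asns, known as a target of ATF4, averaged 863 in KI and 3597 in WT (-2.12, adjusted p = 0.019). Atf4 itself averaged 6128 in KI and 10936 in WT (-0.82, adjusted p = 0.018). The higher genes besides Cebpb were Atf3, at 1.59 (adjusted p = 0.028), and Cebpg, at 0.37 (adjusted p = 0.021, limma). Of the 6 genes that did not pass, Sesn2 was at -0.01, Ddit3 at -0.08, Atf5 at -0.14 and Ddit4 at -0.68. All genes named after Vldlr were chosen after their values were seen. The count of lower genes was 8 without KI 1 and 4 without KI 3, and 13 without replicate 1 of both genotypes. Of all genes, 8.33%, 6.13% and 13.3% were lower in these settings.

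ATF4 binds with C/EBP proteins to a composite element, and the promoter of mouse Slc7a11 is known for a pair of such elements, so the letters TGATGNAAN were searched on both strands of RefSeq promoter windows (GRCm38.p6, 250 bases before to 50 bases after a gene's start). Windows were matched for 31 of the 42 members, and Slc1a5, Slc7a2, Slc7a3, Slc7a4, Slc7a5, Slc7a12, Slc7a13, Slc36a2, Slc38a1, Slc38a3 and Slc43a3 had no match. A gene with several starts had several windows, and the 31 members had 42 windows. The letters were in 4 of these 42 windows (9.52%), against 1299 of 32851 windows in all (3.95%). Among the 4, a site of Slc7a7 was counted from different starts. The letters belonged to 3 members, Slc7a11 and Slc1a4, lower in KI, and Slc7a7, higher in KI. These sites are shown with 15 bases to either side because they lie in members that moved in both directions. Each is written on the strand of its gene, which is the minus strand in all 3, and capitals mark the matched letters.
Slc7a11, chr3:50443638-50443694, matches starting 66 and 48 bases before the start: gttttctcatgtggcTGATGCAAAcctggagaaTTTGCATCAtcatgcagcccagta
Slc1a4, chr11:20332695-20332733, match starting 5 bases before the start: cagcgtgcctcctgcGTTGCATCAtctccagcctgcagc
Slc7a7, chr14:54417922-54417960, match starting 1 base before the start: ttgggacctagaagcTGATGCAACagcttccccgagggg
Slc7a7, chr14:54418062-54418100, match starting 141 bases before the same start: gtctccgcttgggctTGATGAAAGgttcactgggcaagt
In Slc7a11 the matches stand in opposite orientation. The letters of the antioxidant response element, TGACNNNGC, were in 7 of 42 member windows (16.7%), against 4071 of 32851 (12.4%), and none overlapped the first motif. They belonged to Slc7a1, Slc7a6 and Slc38a2, which were lower, to Slc36a1, which was higher, and to Slc43a1 and Slc36a1os, which did not pass. Here a site of Slc7a6 was counted from different starts. A match of letters is a description of these windows and not a binding site.

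Genes by which mTORC1 senses amino acids at the lysosome went in both directions. Of 32 measured, 11 were higher (34.4%, against 11.9% of all genes) and 4 lower (12.5%, against 14.9%), with a median of 0.12. Fnip2, a partner of the GTPase regulator Flcn, averaged 6936 in KI and 2645 in WT (1.40 ± 0.12, adjusted p = 0.0026), and Lamtor4, a subunit of the Ragulator scaffold on the lysosome, 5108 in KI and 3359 in WT (0.60 ± 0.07, adjusted p = 0.0046). Seh1l, a subunit of GATOR2 and of the nuclear pore, was lower (-0.47 ± 0.06, adjusted p = 0.0066), as was the kinase gene Mtor (-0.37 ± 0.05, adjusted p = 0.0082). All 32 lay above the median level, where 46.9% of them passed, against 40.9% of all genes above it. The median was 0.17 with quantile normalization and 0.12 with a common median. It was -0.09 with scaling to the spike-in controls, where that of all genes was -0.21, and -0.41 with the older ones, where that of all genes was -0.53, so its sign followed the shift of all genes and it lay above their median in each case. Without KI 1 the counts were 6 higher and 2 lower, and without KI 3 they were 4 and 2. Of all genes 6.85% were higher and 8.33% lower without KI 1, and 4.88% and 6.13% without KI 3. The lower count of the list was also 2 without KI 2 or WT 2, where 9.76% and 10.8% of all genes were lower.

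A further list held carriers of amino acids, peptides, cystine and related compounds such as creatine outside the 6 families. Of its 32 genes 5 were higher (15.6%) and 4 lower (12.5%), close to the 11.9% and 14.9% of all genes, with a median of 0.03. Slc6a13, a carrier of GABA and taurine, averaged 101 in KI and 269 in WT (-1.41 ± 0.14, adjusted p = 0.0038). Slc66a1, the lysosomal exporter of cationic amino acids, averaged 1847 in KI and 976 in WT (0.93 ± 0.10, adjusted p = 0.0045), and Slc15a3, a lysosomal carrier of histidine and small peptides, 2777 in KI and 1259 in WT (1.18 ± 0.22, adjusted p = 0.016). The mitochondrial ornithine carrier Slc25a15 was lower (-0.50 ± 0.11, adjusted p = 0.022). Leaving out 1 array gave 2 higher and 1 lower without KI 1, 2 and 3 without KI 2, 1 and 2 without KI 3, 3 and 4 without WT 1, 2 and 2 without WT 2, and 4 and 2 without WT 3. Of all genes, 4.88% to 11.0% were higher and 6.13% to 13.1% lower in these settings. With scaling to the spike-in controls the median was -0.18, with 2 higher and 5 lower.

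Of 23 enzymes that use glutamine, glutamate, cystine, arginine or branched-chain amino acids, 2 were higher (8.70%, against 11.9% of all genes) and 9 lower (39.1%, against 14.9%), with a median of -0.13. Gclm, a subunit of the enzyme that starts glutathione synthesis, averaged 3540 in KI and 1978 in WT (0.83 ± 0.09, adjusted p = 0.0038). Bcat2, the mitochondrial branched-chain transaminase, averaged 206 in KI and 370.3 in WT (-0.84 ± 0.13, adjusted p = 0.0098). Got1, the cytosolic aspartate transaminase, was lower (-0.55 ± 0.10, adjusted p = 0.015), as was glutathione reductase, Gsr (-0.86 ± 0.17, adjusted p = 0.018). The lower count was 1 without KI 1, 4 without KI 2 and 1 without KI 3. Of all genes, 8.33%, 9.76% and 6.13% were lower in these settings, so the excess of lower enzymes did not hold without KI 1 or KI 3.

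**Figure D5:**
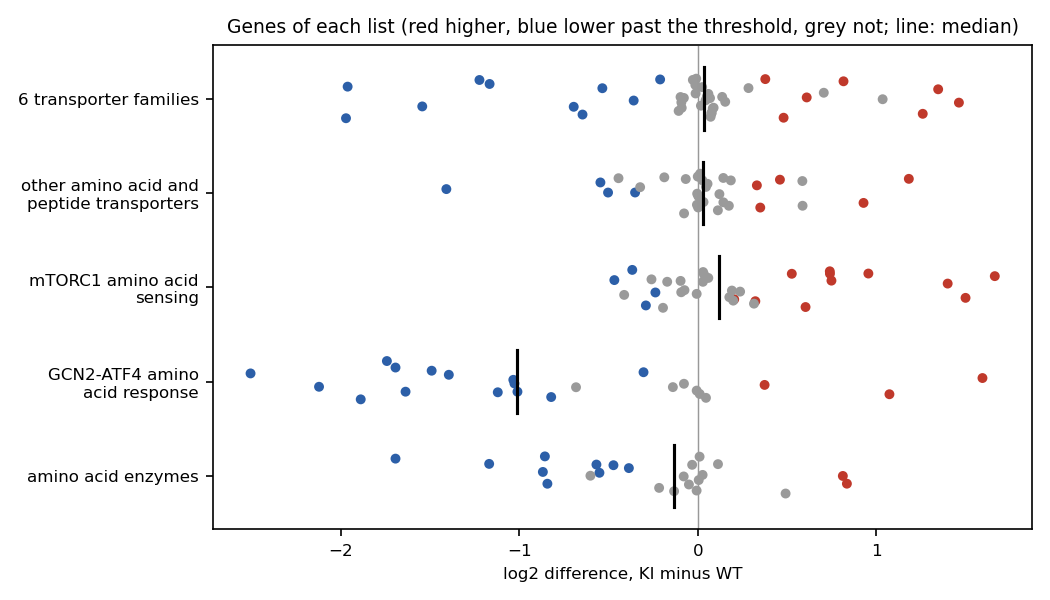
Log2 difference, KI minus WT, of every measured gene of the 42 transporter genes and of 4 further lists (points are genes, coloured by whether they passed the threshold; the bar in each strip is the median). The median of the GCN2 and ATF4 list lies at -1.01 and the medians of the other strips between -0.13 and 0.12; with scaling to the spike-in controls the mTORC1 median is -0.09 and that of all genes -0.21.

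Scaling to the spike-in controls moved the median of all genes to -0.21 and that to the older spike-in controls to -0.53. The split of calls over all genes was 2164 higher and 2704 lower as deposited, 1338 and 5184 with the spike-in controls, and 423 and 8586 with the older ones. The members' split was 7 higher and 10 lower as deposited, the same with the spike-in controls, and 3 and 16 with the older ones. Relative to the shifted median, Slc36a4 at -0.15 and Slc38a7 at -0.05 lay above the median of all genes under the older scaling. Slc7a7, Slc7a8 and Slc36a1 remained higher there, at 0.73, 0.93 and 0.82 (adjusted p = 0.026, 0.0047 and 0.013).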

How the data were processed

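RNA from 6 samples of cells was hybridised to Affymetrix mouse 3' expression arrays, per the labels' protocols. The authors deposited 1 linear intensity per probe set and array, made with Affymetrix Expression Console per the submitters' processing notes; how it summarised and normalized them, and its version, is not given in the sources used here. Equal medians between 83.0 and 84.8 led to the intensities being taken as already normalized. Precision is limited by the number of arrays.

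Of 45101 probe sets, 64 controls were left out; the platform annotation gave 34945 a single gene symbol, 932 several and 9160 none here, and 34741 single-gene probe sets matched RefSeq. Intensities were floored at 16 (5.46% of values lay below) and log2 transformed. Each gene took the brightest of its probe sets, with no filter. The genotypes were compared by lmFit and eBayes with an intensity trend (limma 3.58.1, R 4.3.3), p-values were adjusted by Benjamini-Hochberg over all 18193 genes, and the threshold was 0.05. Differences are KI minus WT. The fit was tested on simulated data.

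The members and lists were chosen with earlier results of these data known. Array values are given for members at least 2-fold apart and past the threshold, and for Slc3a2, Slc7a11 and Slc38a2; from other lists up to 4 genes with the smallest adjusted p are named. Values of other members, and of further genes of the GCN2 and ATF4 list, were added after they were seen. In all 20 alternative settings, normalization, floor, filter, choice of probe set, variance prior, array weights, arrays left out, a replicate block and the number in the sample descriptions were varied. No set test was made.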

Additional observations from a re-analysis of the deposited data

How the results depend on the processing

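Of the 17 members past the threshold, 15 to 17 kept their call under quantile normalization, a common median, spike-in scaling, an added 32, another choice of probe set, another variance prior or array weights, as did all 15 of them above the filter on low values, and 12 kept it without replicate 1 of both genotypes. Higher members (7 as reported) numbered 3 with the older spike-in controls, 2 with the description number as a covariate, 0 with the replicate block, and 3 to 5 with 1 array left out. Lower members (10) numbered 16, 3 and 1 in those settings, and 4 to 8 with 1 array left out. Members at least 2-fold apart (8) numbered 4 with the covariate, 0 with the block, and 5 to 7 with 1 array left out. All genes past the threshold (4868) numbered 9009 with the older controls, 1671 with the covariate, 344 with the block, and 2002 to 4380 with 1 array left out. Slc36a4 reversed to -0.15 and Slc38a7 to -0.0501 with the older controls, where the median of all genes lay at -0.53; the cause was not tested. Samples with the same replicate number deviated from their group means in opposite directions (correlations of -0.48, -0.39 and -0.36 over 10941 genes). This cannot show whether they were handled as pairs, since a larger genotype difference in 1 replicate gives the same sign. The main fit did not take the numbers as pairs. Slc38a2 alone of the 17 kept its call with the replicate block. Dim members such as Slc7a11 and Slc7a15 lie where signal over background limits what a difference can show.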
